A study of Mus musculus with 6 samples.

Results

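The common gamma chain cytokine receptors were examined as 8 genes, *Il2ra*, *Il2rb*, *Il2rg*, *Il4ra*, *Il7r*, *Il9r*, *Il15ra* and *Il21r*. Their rows were found by gene symbol, and all 8 were found among the 24223 genes with counts in each library and among the 13607 genes that were tested. RNA-Seq was performed on mouse CD4+ T cells of 3 kinds, Naive, Th17 and Th1, with 2 libraries each, 6 in all. All cells came from C57BL/6 mice 1 to 2 months old with no further genotype given. Naive cells were CD4+CD44- T cells isolated with a CD4+CD62L+ kit from pooled lymph nodes and spleens and were not stimulated. Th1 and Th17 cells were Naive cells activated with anti-CD3 and anti-CD28 and collected on day 5 of culture with anti-IL-4. The Th1 medium also held IL-12 and IL-2, and the Th17 medium held anti-IFN-γ, TGF-β, IL-6, IL-1β and IL-23. IL-2 is therefore named as an addition for Th1 alone, and Naive cells differ from both cultures in activation and time in culture as well as in polarization, which cannot be told apart here. The study calls the replicates of a cell type independent, but how many animals stand behind each library is not given in the sources used here.

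In this receptor family each cytokine binds its own chain or chains, and all of them share a common signalling chain, the gamma chain encoded by *Il2rg*. The gamma chain carries the kinase JAK3, and the other signalling chains carry JAK1. Together they activate STAT proteins, mainly STAT5 for IL-2, IL-7, IL-9 and IL-15, STAT6 for IL-4 and STAT3 for IL-21. IL-7 keeps resting naive T cells alive, whereas IL-2 drives the expansion of activated T cells through a receptor whose alpha chain, CD25, is best known as an activation marker and as a marker of regulatory T cells. The question addressed here was which of these chains had a different mRNA level in Naive, Th17 and Th1 cells.

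On the GRCm38 assembly (also called mm10) with the GENCODE vM21 annotation, 4 of the genes formed 2 close pairs. *Il2ra* (chr2:11642807-11693193) and *Il15ra* (chr2:11705290-11734317) lay in the same orientation 12.1 kb apart, with no protein-coding gene between them. *Il4ra* (chr7:125552120-125579474) and *Il21r* (chr7:125603429-125633570) were likewise 24.0 kb apart. The others were *Il7r* (chr15:9505788-9530176) and *Il2rb* (chr15:78479256-78495271), far apart on the same chromosome, *Il9r* (chr11:32187541-32200279) and *Il2rg* (chrX:101264378-101268255). An annotated gene on the same strand shared exons with *Il2rg*, and an antisense gene shared exonic bases with *Il4ra*. Neither has a count of its own in the files, so that the part of such reads in the *Il2rg* and *Il4ra* counts was not tested.

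The promoters of *Il2ra*, the receptor gene with the largest higher call, and of *Il9r*, the only gene with a lower call, are shown as the 250 bases upstream of the RefSeq start (GRCm38.p6), which for *Il2ra* is chr2:11642542-11642791 on the plus strand and for *Il9r* is chr11:32200280-32200529 on the minus strand. Letters that match a searched motif would be in capitals, and there were none in these windows.
Il2ra: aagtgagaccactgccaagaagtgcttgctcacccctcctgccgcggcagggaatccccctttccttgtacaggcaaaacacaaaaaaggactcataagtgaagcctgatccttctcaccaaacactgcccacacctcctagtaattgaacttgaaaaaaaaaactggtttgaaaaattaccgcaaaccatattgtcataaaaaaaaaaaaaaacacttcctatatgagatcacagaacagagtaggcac
Il9r: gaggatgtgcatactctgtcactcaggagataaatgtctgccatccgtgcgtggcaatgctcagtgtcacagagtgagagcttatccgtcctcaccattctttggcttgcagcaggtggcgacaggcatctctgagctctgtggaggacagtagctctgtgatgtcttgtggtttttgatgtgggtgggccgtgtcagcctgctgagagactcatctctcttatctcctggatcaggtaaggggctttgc
Neither window held the STAT letters TTCNNNGAA, the AP-1 letters TGANTCA or the Foxo letters GTAAACA on either strand, the 3 motifs searched. Among 32851 RefSeq promoter windows of 250 bases, 7.02% held the STAT letters, 6.75% the AP-1 letters and 3.17% the Foxo letters. The table gave 8 windows for 7 of the 8 receptor genes, *Il2rb* having no entry. *Il7r* held 1 STAT match 142 bases upstream of its start, 1 of 2 *Il15ra* windows held an AP-1 match 30 bases upstream and *Il21r* held a Foxo match 38 bases upstream. *Il2rg* and *Il4ra* held none. A match describes letters only and is not evidence of binding.

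The libraries held 17742158 to 69080017 counts, and replicate 1 of each cell type was the deeper library. Levels are given as CPM, the counts of a gene relative to its library's total (counts per 1000000) after scaling of the totals by edgeR's TMM factors, which ranged from 0.862 to 1.09. For the identity of the cells, 8 of 9 T cell markers were in the files, and their summed level was 3090 to 4670 CPM in all libraries. The 5 Th17 markers summed to 1410 and 1880 CPM in Th17 and to at most 10.5 CPM elsewhere, and the 4 Th1 markers to 775 and 763 CPM in Th1 and to at most 93.9 CPM elsewhere. All 6 markers of naive T cells exceeded 10 CPM in every library, the Th17 and Th1 cultures included. The 8 neutrophil markers summed to 2910 and 2800 CPM in Th17, 310 and 189 CPM in Naive, with 27.4 and 39.3 CPM in Th1, and the 7 macrophage and monocyte markers to 315 and 919 CPM in Th17 and to at most 47.3 CPM elsewhere. Each of these 15 myeloid markers had counts in both Th17 libraries. The neutrophil sum joins genes that moved in opposite directions. Its Naive part was mostly *Mpo* (251 CPM in replicate 1, 159 CPM in replicate 2) and *Elane* (57.3 and 29.6 CPM in turn). In Th17, *Mpo* was lower, at 68.1 and 58.7 CPM, and *Elane* lay within its Naive range, at 52.5 and 46.9 CPM. The others, *S100a8*, *S100a9*, *Ngp*, *Ltf*, *Camp* and *Mmp8*, were each at most 0.969 CPM in Naive but at least 22.5 CPM in Th17. The 3 regulatory T cell markers summed to 121 and 207 CPM in Naive, 53 and 33.2 CPM in Th17 and 59.7 and 95.2 CPM in Th1. The part of other cells in the receptor levels was not tested. In bulk RNA, fewer cells that express a gene and less RNA of it per cell cannot be told apart.

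A receptor gene was called higher or lower at a Benjamini-Hochberg adjusted p under 0.01 over the 13607 genes and an absolute log2 fold change above 1, by the quasi-likelihood F-test of edgeR. In Th17 compared with Naive, 1 of the 8 receptor genes was called higher and 0 lower, against 4.01% and 1.43% of all genes tested. At an unadjusted p under 0.05, 1 receptor gene was higher and 1 lower, and DESeq2 called 1 higher and 1 lower. For counts at an unadjusted p, here and for the lists below, no share of all genes is given, so an excess over all genes cannot be read from them. In Th1 compared with Naive, 2 were called higher and 1 lower, against 4.64% and 2.81% of all genes tested. Here 5 were higher and 1 lower at an unadjusted p under 0.05, and DESeq2 called 3 higher and 1 lower. In Th1 compared with Th17, 1 was called higher and 0 lower, against 2.7% and 2.83% of all genes tested. In this comparison 5 receptor genes were higher at an unadjusted p under 0.05 and 2 by DESeq2, and none was lower by either. Over all genes, DESeq2 called 1069 higher and 669 lower, 1108 and 820, and 926 and 898 in the 3 comparisons in turn. The median log2 fold change of the 8 genes was 0.20, 0.92 and 0.75 in these comparisons in turn, and that of all genes tested was -0.02, -0.02 and -0.03. In Th1 compared with Naive, the ranges of 6 receptor genes lay above and of 1 below those of Naive, where 27.6% and 28.4% of all genes did so. The numbers were the same, 6 above and 1 below, for Th1 against Th17, with 31.5% and 35.1% of all genes. For Th17 against Naive they were 2 above and 1 below, with 32.4% and 33.1% of all genes. These comparisons share libraries and are given side by side. The smallest two-sided p that an exact permutation of 2 and 2 libraries allows is 0.333, so p-values come only from the model over all genes. They set a difference between cell types against a spread between libraries that the model estimates over all 3 cell types together.

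**Figure D1:**
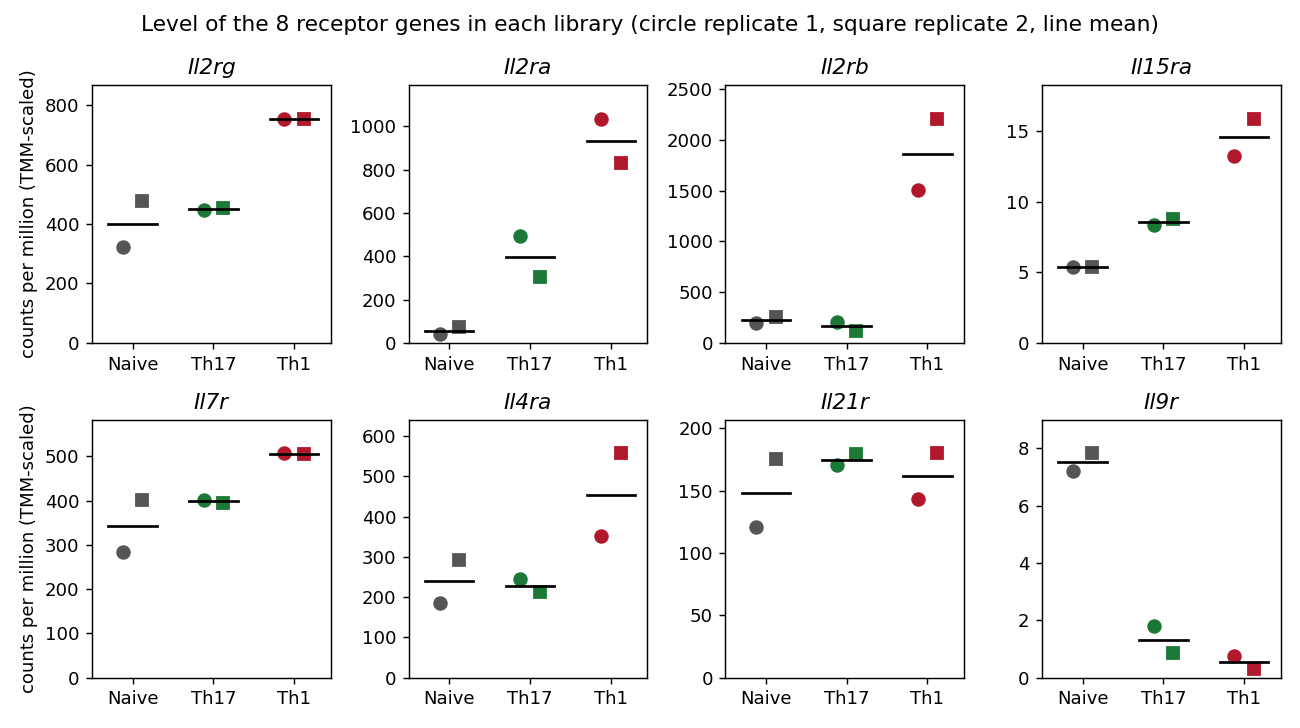
CPM (y axis, from 0) of each receptor gene in each library of Naive, Th17 and Th1 (x axis), where circles are replicate 1, squares are replicate 2 and lines are the mean of 2 libraries. *Il2ra* and *Il2rb* stood highest in Th1, at 831 CPM or more and 1506 CPM or more, *Il9r* was highest in Naive, and the *Il21r* ranges of all 3 cell types overlapped.

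*Il2rg*, which encodes the shared chain, was abundant in every library. It was at 324 and 476 CPM in Naive, 449 and 454 CPM in Th17 and 753 and 755 CPM in Th1. The Th1 libraries lay above the other 4, and the ranges of Naive and Th17 overlapped. In Th1 against Naive the log2 fold change was 0.91 (SE 0.30, 95% confidence interval 0.25 to 1.58, adjusted p = 0.064), and in Th1 compared with Th17 it was 0.74 (SE 0.30, adjusted p = 0.11). In Th17 compared with Naive it was 0.17 (SE 0.29, confidence interval -0.48 to 0.83, adjusted p = 0.71). None of these was called.

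*Il2ra* encodes the alpha chain of the IL-2 receptor, which gives that receptor its high affinity but does not itself signal. Its level was 42.3 and 71.8 CPM in Naive, 493 and 302 CPM in Th17 and 1035 and 831 CPM in Th1. The libraries of the 3 cell types did not overlap, with Naive lowest and Th1 highest. *Il2ra* rose by a log2 fold change of 2.80 in Th17 compared with Naive (SE 0.38, 6.98-fold, adjusted p = 0.0015). It rose by 4.03 in Th1 compared with Naive (SE 0.40, 16.4-fold, adjusted p = 0.00026). The difference of 1.23 between Th1 and Th17 (SE 0.36, confidence interval 0.42 to 2.04, adjusted p = 0.046) was not called. Both rises against Naive were called under all 16 alternative settings, with log2 fold changes of 2.41 to 3.22 in Th17 and 3.70 to 4.46 in Th1. *Foxp3*, the defining factor of regulatory T cells, which carry the alpha chain, was at 39.2 and 69.9 CPM in Naive, 19.2 and 12.7 CPM in Th17 and 6.95 and 13.2 CPM in Th1. *Lrrc32*, of the same list, was at 20 and 39 CPM in Naive, 19.3 and 10.6 CPM in Th17 and 41.9 and 75.5 CPM in Th1. The part of regulatory T cells in the level of *Il2ra* was not tested. Between the Th17 libraries, *Il2ra* was lower in replicate 2 than in replicate 1. The macrophage and monocyte markers summed to 315 CPM in replicate 1 and 919 CPM in replicate 2. Most of this sum was *Lyz2*, at 223 and 762 CPM, and the other markers of the list were each higher in replicate 2 too. The T cell markers summed to 3090 and 3970 CPM and the neutrophil markers to 2910 and 2800 CPM in these libraries in turn. The part of these cells in the difference of *Il2ra* was not tested.

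*Il2rb* encodes the beta chain, the signalling partner of the gamma chain in the receptors for IL-2 and IL-15. It was at 198 and 255 CPM in Naive, at 210 and 114 CPM in Th17 and at 1506 and 2208 CPM in Th1. Both Th1 libraries stood well above the other 4, while the ranges of Naive and Th17 overlapped. In Th1 against Naive the log2 fold change was 3.03 (SE 0.40, 8.19-fold, adjusted p = 0.00099), and in Th1 compared with Th17 it was 3.52 (SE 0.41, 11.5-fold, adjusted p = 0.00068). In Th17 compared with Naive it was -0.49 (SE 0.37, confidence interval -1.31 to 0.34, adjusted p = 0.38), which was not called. *Il2rb* was thus the only receptor gene that edgeR called between Th1 and Th17, and both Th1 calls held under all 16 alternative settings. The 7 markers of CD8 T and NK cells, which carry the beta chain, summed to 55.5 and 51.7 CPM in Naive, 21.3 and 25.4 CPM in Th17 and 38.2 and 28.9 CPM in Th1, and their part in the level of *Il2rb* was not tested.

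*Il15ra* encodes the private alpha chain for IL-15, which can also present IL-15 to neighbouring cells. It was scarce, at 5.39 and 5.35 CPM in Naive, 8.34 and 8.77 CPM in Th17 and 13.2 and 15.9 CPM in Th1. Behind these levels stood 108 counts in the library with the fewest and 856 in that with the most. The libraries of the 3 cell types did not overlap and stood in the same order as those of *Il2ra*, its neighbour on the chromosome. This order is not particular to the pair. The means of *Il2rg* (400, 452 and 754 CPM in Naive, Th17 and Th1) and of *Il7r* (342, 398 and 506 CPM) stood in it too. The means of *Il4ra* and *Il21r*, the other close pair, did not share an order. In Th1 against Naive the log2 fold change was 1.44 (SE 0.34, confidence interval 0.67 to 2.2, adjusted p = 0.019). It was 0.77 in Th1 compared with Th17 (SE 0.34, adjusted p = 0.14) and 0.67 in Th17 compared with Naive (SE 0.34, adjusted p = 0.19). None was called by edgeR, and DESeq2 called the difference between Th1 and Naive.

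*Il7r* encodes the alpha chain for IL-7, which also serves, with the product of *Crlf2*, the cytokine TSLP. It was at 283 and 402 CPM in Naive, 402 and 394 CPM in Th17 and 507 and 505 CPM in Th1. The Th1 libraries were above the others, and Th17 lay within or at the edge of the Naive range. In Th1 against Naive the log2 fold change was 0.56 (SE 0.29, confidence interval -0.07 to 1.20, adjusted p = 0.22), and in Th17 compared with Naive it was 0.22 (SE 0.28, confidence interval -0.42 to 0.85, adjusted p = 0.62). Th1 and Th17 differed by 0.35 (SE 0.29, adjusted p = 0.41). *Il7r* was not called in any comparison, and these intervals leave room for a change of about the 2-fold threshold in Th1 against Naive.

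*Il4ra* encodes the chain that binds IL-4 and pairs either with the gamma chain or with the product of *Il13ra1*. It was at 185 and 293 CPM in Naive, 244 and 212 CPM in Th17 and 351 and 557 CPM in Th1. The Th1 libraries were the highest, and the Th17 libraries lay within the Naive range. In Th1 against Naive the log2 fold change was 0.92 (SE 0.34, confidence interval 0.17 to 1.68, adjusted p = 0.093), and in Th1 compared with Th17 it was 0.99 (SE 0.34, confidence interval 0.24 to 1.74, adjusted p = 0.071). In Th17 compared with Naive it was -0.07 (SE 0.33, adjusted p = 0.90). *Il4ra* was not called in any comparison.

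*Il21r* encodes the private chain for IL-21, a cytokine of activated helper T cells. It was at 121 and 175 CPM in Naive, 170 and 180 CPM in Th17 and 143 and 180 CPM in Th1. The ranges of all 3 cell types overlapped. The log2 fold changes were 0.24 in Th17 compared with Naive (confidence interval -0.39 to 0.87, adjusted p = 0.57), 0.13 in Th1 against Naive (confidence interval -0.50 to 0.76, adjusted p = 0.81) and -0.11 in Th1 compared with Th17 (confidence interval -0.74 to 0.51, adjusted p = 0.80), each with SE 0.28, and the value for Th1 against Naive turned to -0.13 when libraries were scaled by their totals alone. The intervals exclude a 2-fold difference in either direction in all 3 comparisons.

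*Il9r* encodes the private chain for IL-9 and was the only receptor gene whose mean lay below that of Naive in both Th17 and Th1. It was at 7.19 and 7.82 CPM in Naive, 1.81 and 0.849 CPM in Th17 and 0.743 and 0.316 CPM in Th1. The libraries of the 3 cell types did not overlap, with Naive highest. These levels rested on 490 and 158 counts in Naive, 118 and 15 in Th17, with 48 and 5 in Th1. *Il9r* fell by 3.71 on the log2 scale in Th1 compared with Naive (SE 0.60, 13.1-fold, adjusted p = 0.0030). In Th17 compared with Naive its log2 fold change was -2.45 (SE 0.56, confidence interval -3.70 to -1.21, adjusted p = 0.018), which was not called, and in Th1 compared with Th17 it was -1.26 (SE 0.57, adjusted p = 0.15). The call in Th1 rested in part on Th1 replicate 2, since without it the log2 fold change was -3.33 with an adjusted p of 0.013, the highest over the 15 alternative settings that gave a value, whose lowest was 2.7e-08. Mast cells and basophils can carry the IL-9 receptor. Their 9 markers summed to 156 and 53.9 CPM in Naive, 162 and 374 CPM in Th17 and 76 and 50.7 CPM in Th1. This sum joins genes that moved in opposite directions. From Naive to Th17, *Kit* went down from 99.8 and 29.6 CPM to 12.8 and 11.4 CPM. *Cpa3* went up from 6.05 and 4.06 CPM to 34 and 111 CPM, and *Mcpt8* from 7.59 and 1.19 CPM to 66 and 119 CPM. The part of these cells in the level of *Il9r* was not tested.

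**Figure D2:**
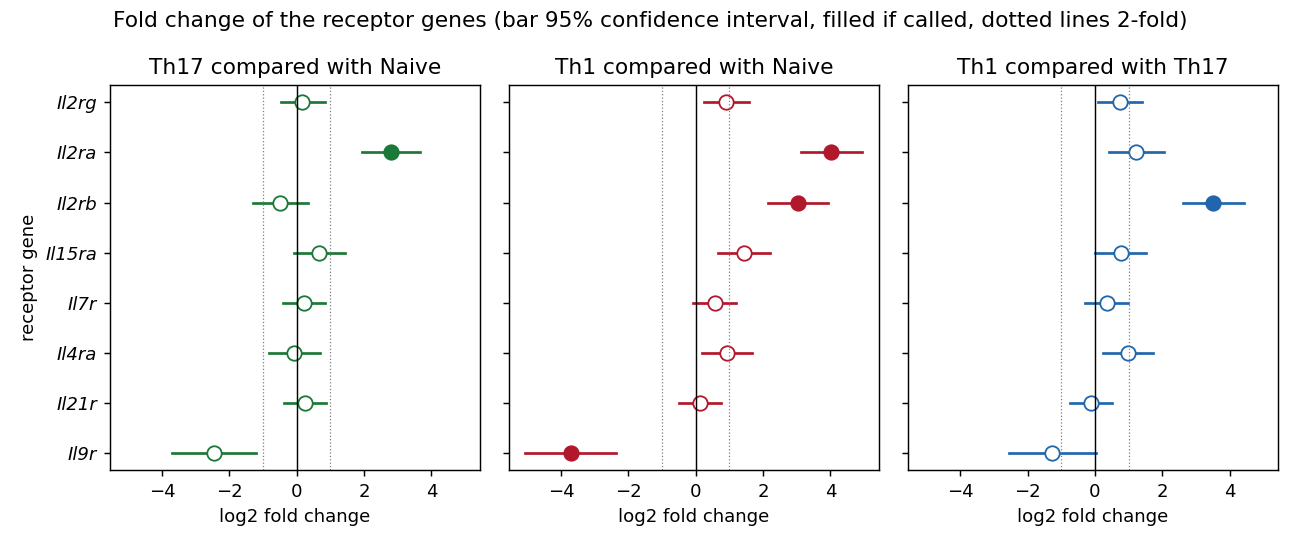
Log2 fold change (x axis) of each receptor gene (y axis) in the 3 comparisons, with 95% confidence intervals as bars, filled points for called genes and dotted lines at a 2-fold change. *Il2ra* is filled in both comparisons with Naive, at 2.80 and 4.03, *Il2rb* in both that involve Th1, at 3.03 and 3.52, and *Il9r* at -3.71 in Th1 compared with Naive.

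To compare the genes with each other, levels were divided by the length of all annotated exons of each gene, from 2387 bases for *Il2rg* to 6002 bases for *Il4ra*, giving CPM per kb. In Naive, *Il2rg* was the most abundant at 168 CPM per kb, followed by *Il7r* at 73.4 CPM per kb. *Il2rb* at 52.9, *Il21r* at 44.5 and *Il4ra* at 39.8 CPM per kb followed, *Il21r* overlapping with both of its neighbours. *Il2ra* at 9.99, *Il9r* at 1.52 and *Il15ra* at 1.21 CPM per kb came last. In resting cells, therefore, the shared chain and the IL-7 receptor chain led, and the IL-2 receptor alpha chain was among the 3 lowest.

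In Th17, *Il2rg* again led at 189 CPM per kb. *Il7r* at 85.3, *Il2ra* at 69.6 and *Il21r* at 52.7 CPM per kb followed, *Il2ra* overlapping with both of its neighbours. *Il4ra* at 38.0 and *Il2rb* at 37.7 CPM per kb overlapped each other, and *Il15ra* at 1.92 and *Il9r* at 0.268 CPM per kb were the lowest. In Th1 the order was *Il2rb* at 433, *Il2rg* at 316, *Il2ra* at 163, *Il7r* at 109, *Il4ra* at 75.6, *Il21r* at 48.7, *Il15ra* at 3.27 and *Il9r* at 0.107 CPM per kb. Th1 was the only cell type in which another chain of the family, *Il2rb*, stood above *Il2rg* by this length. The order depends on the length used. With coding length in place of exon length, *Il2ra* ranked the first in Th17 and the second in Th1, both above *Il2rg*. In Th17 this held in 1 of 2 libraries, since the coding-length ratio of *Il2ra* to *Il2rg* was 1.39 in replicate 1 and 0.844 in replicate 2.

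**Figure D3:**
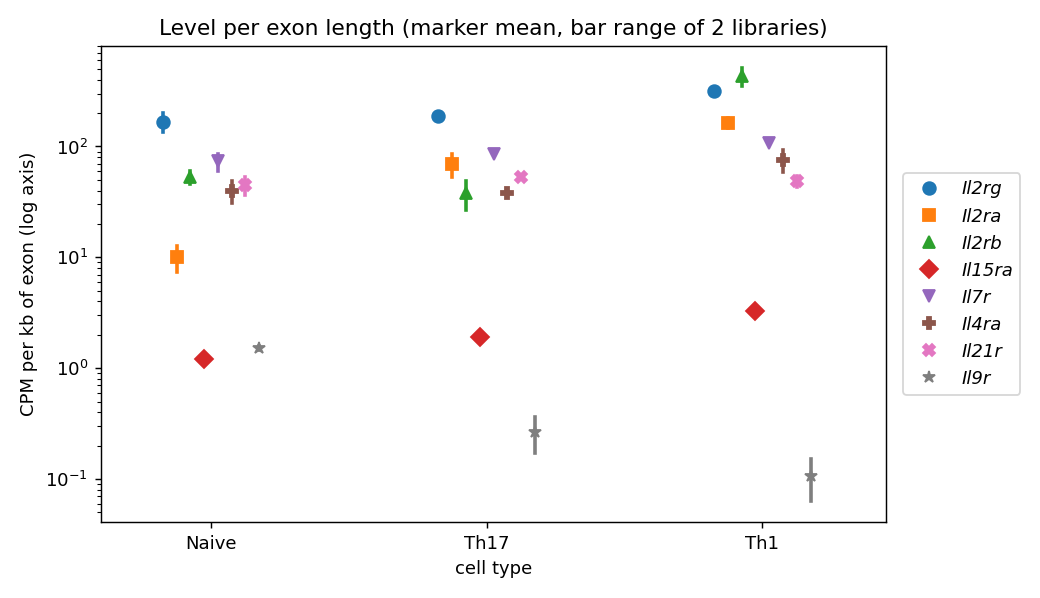
Level per exon length (y axis, CPM per kb, log axis) of the 8 receptor genes in Naive, Th17 and Th1 (x axis), with markers at the mean and bars over the range of 2 libraries. *Il2rg* lies at 168 to 316 CPM per kb in all 3 cell types, *Il2rb* at 433 CPM per kb in Th1, and *Il15ra* and *Il9r* lie below 4 CPM per kb throughout.

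Ratios within a library do not depend on its total and describe how the chains of the IL-2 receptor were balanced at the mRNA level. The ratio of *Il2ra* to *Il2rb* in CPM per kb was 0.16 and 0.211 in Naive, 1.76 and 1.99 in Th17, with 0.516 and 0.283 in Th1. It was highest in both Th17 libraries, in which *Il2ra* was higher than in Naive and *Il2rb* was not. With coding length the values were 0.396 and 0.521 in Naive, 4.36 and 4.92 in Th17, with 1.27 and 0.698 in Th1, in the same order of cell types.

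The ratio of *Il2rb* to *Il2rg* was 0.341 and 0.299 in Naive, 0.26 and 0.14 in Th17, but 1.11 and 1.63 in Th1. *Il2rb* made up 33.1% and 41.7% of the summed level per kb of the 8 genes in Th1, against 14.5% and 12.9% in Naive and 9.71% and 5.96% in Th17. *Il2rg* made up 42.5% and 43.2% in Naive, 37.3% and 42.7% in Th17, but 29.7% and 25.6% in Th1. The share of the common chain was therefore lowest in Th1, although its own level was highest there. The 7 chains other than *Il2rg* together stood to it as 1.36 and 1.32 in Naive, 1.68 and 1.34 in Th17, but 2.36 and 2.91 in Th1. With coding length this ratio was 1.84 and 1.8 in Naive, 2.97 and 2.23 in Th17, but 4.02 and 4.46 in Th1, and Th17 then lay above Naive without overlap. These ratios concern mRNA, and 2 libraries per cell type allow no exact test to pass 0.05.

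**Figure D4:**
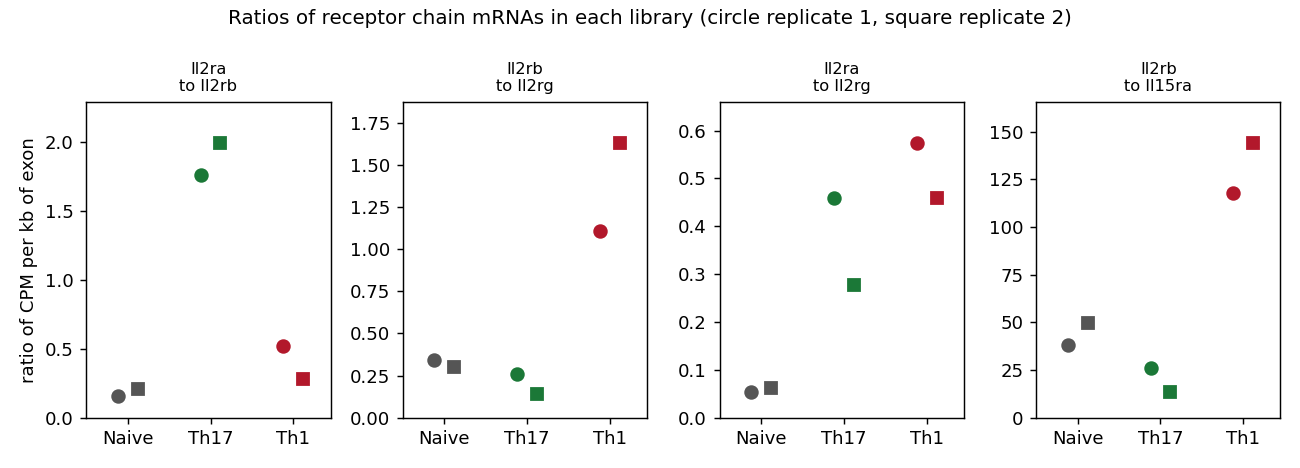
Ratios of CPM per kb of exon (y axes, from 0) between chain mRNAs in each library of Naive, Th17 and Th1 (x axes), with circles for replicate 1 and squares for replicate 2. The ratio of *Il2ra* to *Il2rb* is highest in Th17, at 1.76 and 1.99, and that of *Il2rb* to *Il2rg* in Th1, at 1.11 and 1.63.

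Of the 6 cytokines that bind these receptors, 4 passed the filter on low counts. For the calls below, the share of all genes tested was 4.01% higher in Th17 and 4.64% higher in Th1 compared with Naive. It was 2.83% lower in Th1 compared with Th17. *Il2* was at 0.572 and 0.545 CPM in Naive, 5.52 and 4.92 CPM in Th17 and 0.0928 and 0.19 CPM in Th1, the last on 6 and 3 counts. It was called higher in Th17 compared with Naive (log2 fold change 3.22, SE 0.55, adjusted p = 0.0045) and lower in Th1 compared with Th17 (-5.38, SE 0.65, adjusted p = 0.00087). Th1 and Naive differed by a log2 fold change of -2.17 (SE 0.65, adjusted p = 0.046), which was not called. *Il21*, at 1.75 and 1.73 CPM in Naive, 35.5 and 48.7 CPM in Th17 and 13.4 and 13.6 CPM in Th1, was called higher in Th17 (4.59, SE 0.36, adjusted p = 6.9e-05) and in Th1 (2.95, SE 0.33, adjusted p = 0.00046) compared with Naive, and lower in Th1 compared with Th17 (-1.64, SE 0.31, adjusted p = 0.0077). Its receptor *Il21r* showed no call in the same comparisons. *Il4*, at 1.28 and 1.29 CPM in Naive, 4.21 and 4.24 CPM in Th17 and 0.743 and 0.506 CPM in Th1, was called lower in Th1 compared with Th17 (-2.71, SE 0.52, adjusted p = 0.0084). *Il15* was at 0.0632 to 0.566 CPM and was not called. *Il7*, which is made mainly by stromal cells, had 0 to 5 counts in each library, and *Il9* had 0 counts in all libraries but those of Th17, which had 15 and 1. The count of 2 called cytokines in Th17 compared with Naive was 1 without any single Naive or Th17 library, and the count of 3 in Th1 compared with Th17 was 1 without any single Th17 or Th1 library.

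Of 16 signal transducers of the family, 15 were tested, and edgeR called 0 in each comparison. At an unadjusted p under 0.05, 4 were lower in Th17 and 4 higher in Th1 against Naive, and 6 were higher in Th1 against Th17, and DESeq2 called 2, 0 and 1 of these. *Jak3*, *Stat5a* and *Stat5b* are given for their role and were chosen outside the naming rule. *Jak3*, the kinase carried by the gamma chain, was at 188 and 310 CPM in Naive, 502 and 281 CPM in Th17 and 522 and 462 CPM in Th1. *Stat5a* was at 74.4 to 169 CPM and *Stat5b* at 239 to 360 CPM over all libraries. These 3 were present in every library, whereas *Irs1*, the transducer that was not tested, had at most 3 counts in any. For the 15 tested genes, the median of their log2 fold changes was -0.29, 0.03 and 0.60 in the 3 comparisons, and that of all genes tested was -0.02, -0.02 and -0.03.

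Of 10 inhibitors of the pathway, some of which are induced by STAT signalling and act back on it, 2 were called higher in Th17 and 3 in Th1 against Naive, and 1 in Th1 against Th17, with 0 lower by edgeR in each. At an unadjusted p under 0.05, 2, 1 and 0 were lower, and DESeq2 called 1, 0 and 0 lower. Among all genes tested, edgeR called 4.01%, 4.64% and 2.7% higher in these comparisons in turn. *Socs2* was at 7.79 and 8.32 CPM in Naive, 43.9 and 31.2 CPM in Th17 and 97.5 and 67.6 CPM in Th1. It rose in Th17 (log2 fold change 2.22, SE 0.31, adjusted p = 0.0018) and in Th1 (3.36, SE 0.33, adjusted p = 0.00022) compared with Naive. *Socs3*, a feedback inhibitor best known for IL-6 signalling, rose in Th17 (2.50, SE 0.36, adjusted p = 0.0018) and in Th1 (1.99, SE 0.35, adjusted p = 0.0043). *Socs1*, at 32.3 and 44.9 CPM in Naive, 80.9 and 64.2 CPM in Th17 and 209 and 312 CPM in Th1, rose in Th1 compared with Naive (2.75, SE 0.32, adjusted p = 0.00051) and with Th17 (1.84, SE 0.31, adjusted p = 0.0045). The count in Th17 compared with Naive was 0 without Naive replicate 1 or without Th17 replicate 1, and the count between Th1 and Th17 was 0 without either Th17 library or Th1 replicate 2, with scaling by library totals alone and in a test against a 2-fold change.

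Of 15 genes known as targets of IL-2 and STAT5, 3 were called higher in Th17 and 8 in Th1 against Naive, and 6 in Th1 against Th17. The number lower was 0 in each by edgeR, was 2, 0 and 0 at an unadjusted p under 0.05, and was 1, 0 and 0 by DESeq2. The median log2 fold change of the list was 0.35, 2.14 and 1.42, and that of all genes tested was -0.02, -0.02 and -0.03. Of all genes tested, 4.01%, 4.64% and 2.7% were called higher in these comparisons in turn, and 1.43%, 2.81% and 2.83% lower. *Pim2*, a survival kinase, was at 36.1 and 49.6 CPM in Naive, 131 and 128 CPM in Th17 and 884 and 1030 CPM in Th1. *Pim2* was called in all 3 comparisons, with log2 fold changes of 1.60 (SE 0.29, adjusted p = 0.0064), 4.48 (SE 0.33, adjusted p = 4.7e-05) and 2.88 (SE 0.30, adjusted p = 0.00048). *Gzmb*, which encodes the cytotoxic protease granzyme B, was at 11.7 and 4.7 CPM in Naive, 379 and 333 CPM in Th17 and 893 and 463 CPM in Th1, and was called in both comparisons with Naive, with log2 fold changes of 5.41 (SE 0.53, adjusted p = 0.00025) and 6.34 (SE 0.55, adjusted p = 0.00013). *Nfil3*, a transcription factor, was called in the same comparisons at 2.80 (SE 0.33, adjusted p = 0.00068) and 3.30 (SE 0.33, adjusted p = 0.00027). These genes also respond to other signals of the cultures, and the part of IL-2 was not tested. The count in Th1 compared with Th17 was 1 without Th17 replicate 1, Th17 replicate 2 or Th1 replicate 2, 1 in a test against a 2-fold change and 3 when libraries were scaled by their totals alone.

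**Figure D5:**
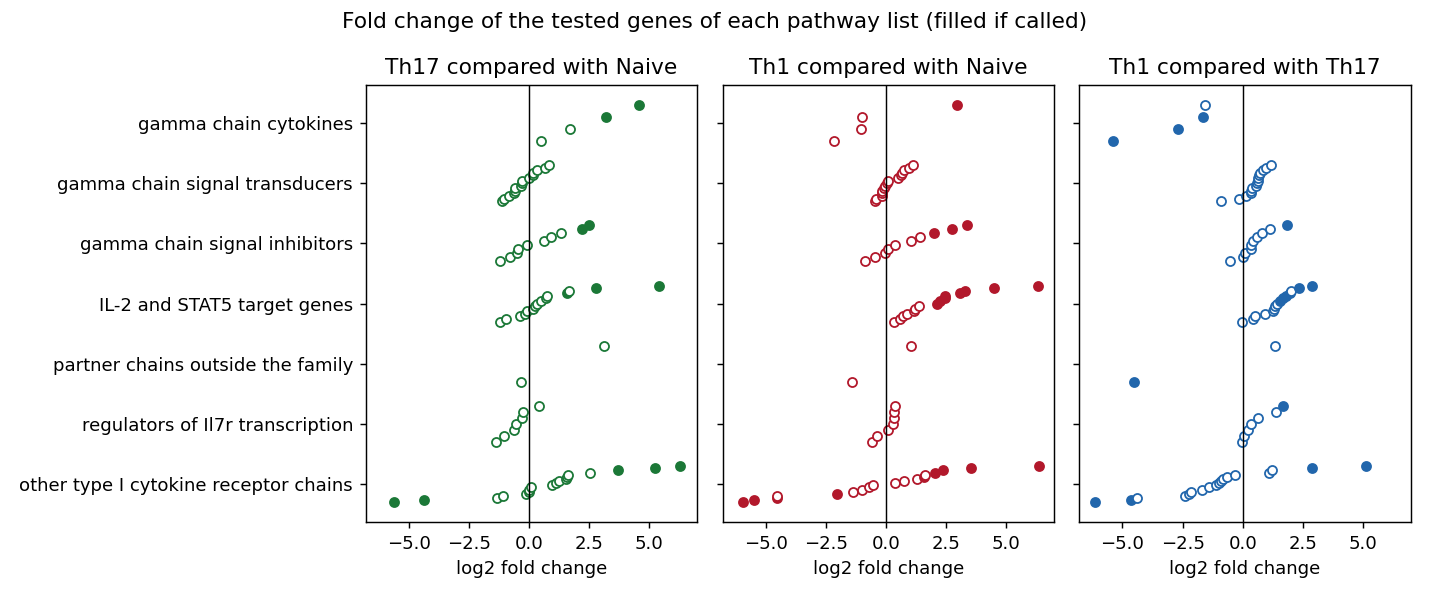
Log2 fold change (x axis) of each tested gene of the 7 lists around the receptors (y axis) in the 3 comparisons, with filled points for called genes. No transducer is filled, while 8 of 15 IL-2 and STAT5 target genes are filled to the right in Th1 compared with Naive.

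Some receptor chains work with partners outside the family. *Crlf2*, the partner of the *Il7r* product for TSLP, was tested and was not called by edgeR in any comparison, whereas DESeq2 called it higher in Th1 compared with Th17, where its libraries were at 151 and 277 CPM against at most 116 CPM in the other 4. *Il13ra1*, the other partner of the *Il4ra* product, was at 0.411 and 0.149 CPM in Naive, 1.96 and 3.39 CPM in Th17 and 0.0774 and 0.19 CPM in Th1, and was called lower in Th1 compared with Th17 (log2 fold change -4.53, SE 0.84, adjusted p = 0.0070). The Th1 libraries held 5 and 3 of its counts, the call was lost without any single Th17 or Th1 library, and its level moved with the macrophage and monocyte markers, highest in Th17 replicate 2, whose part was not tested. Of the 2 partners tested, edgeR called 0 against Naive in either culture, with 1 higher in each at an unadjusted p under 0.05 and 1 and 0 by DESeq2. Of 7 known regulators of *Il7r* transcription, edgeR called 1, *Foxp1*, a repressor of *Il7r*, which was higher in Th1 compared with Th17 (log2 fold change 1.66, SE 0.30, adjusted p = 0.0067) at 199 and 262 CPM against 76.4 and 69.6 CPM. Its call was lost without any single library of either cell type and when libraries were scaled by their totals alone. DESeq2 called 2 of the 7 higher in this comparison, *Foxp1* and *Foxo1*. Among all genes tested, edgeR called 2.7% higher and 2.83% lower in Th1 compared with Th17. Against Naive, 0 of the 7 were called by edgeR, with 2 lower in Th17 at an unadjusted p under 0.05, of which DESeq2 called 1, and 0 in Th1 by either.

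Among 18 tested chains of other type I cytokine receptors, 3 were called higher and 2 lower in Th17 against Naive, 5 and 4 in Th1 against Naive and 2 and 2 in Th1 compared with Th17. The shares of all genes tested were 4.01% and 1.43%, 4.64% and 2.81%, and 2.7% and 2.83% in turn. For these chains, the largest higher call was *Il23r* in Th17 and *Il12rb2* in Th1, both against Naive. *Il23r* was at 33.1 and 30.4 CPM in Th17 against 0.572 and 0.149 CPM in Naive (log2 fold change 6.26, SE 0.83, adjusted p = 0.0013), and *Il12rb2* was at 338 and 281 CPM in Th1 against 3.82 and 3.76 CPM in Naive (6.35, SE 0.37, adjusted p = 1.6e-05). These counts fell to 3 of 18 in Th17 compared with Naive without Naive replicate 1 or either Th17 library, to between 3 and 5 in Th1 against Naive without Naive replicate 1 or either Th1 library, and to 2 in Th1 compared with Th17 without Th17 replicate 1.

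The genes nearest to each receptor gene in pattern were found by the root mean square difference of centred log2 CPM over the 6 libraries, among 8840 or 8841 other genes with a mean of at least 10 CPM. For *Il2ra* they were *Pmaip1*, *Map3k8* and *F2rl2*, at 0.29 to 0.31 log2 units. For *Il2rb* they were *Phlpp1*, *Entpd1* and *Nacc2*, at 0.26 to 0.30 log2 units. For *Il9r* they were *Ikzf2*, *Slc16a10* and *Egr3*, at 0.41 to 0.46 log2 units, of which *Ikzf2*, known from regulatory T cells, was at 61.3 and 98.4 CPM in Naive and at most 14.5 CPM in the cultures. The other receptor genes varied less, and their neighbours were closer. For *Il2rg* they were *Arhgef6*, *Tbc1d14* and *Tmem173*, for *Il7r* *Gsdmd*, *Ric1* and *Cdk2ap2*, for *Il4ra* *Prickle3*, *Paqr7* and *Sytl1*, for *Il15ra* *Mvd*, *Igfbp4* and *Treml2* and for *Il21r* *Tbc1d10c*, *Rad52* and *Fam120b*, at 0.037 to 0.12 log2 units. No receptor gene was among the 3 nearest of another, and *Il9r* and *Il15ra*, below that mean, could not be.

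The spread between replicates differed among the receptor genes. In Naive, 6 of the 8 genes were higher in replicate 2, by 1.29 times for *Il2rb* to 1.70 times for *Il2ra*. *Il9r* and *Il15ra* stood at 1.09 and 0.993 times. The summed T cell markers were 3170 and 4060 CPM in replicates 1 and 2 of Naive. They were 3090 and 3970 CPM in Th17 and 3400 and 4670 CPM in Th1, and their part in the replicate ratios was not tested. In Th17, replicate 2 held 0.613 times the *Il2ra*, 0.544 times the *Il2rb* and 0.47 times the *Il9r* of replicate 1, and the other 5 genes lay between 0.87 and 1.05 times. In Th1, *Il2rg* and *Il7r* were nearly equal, at 1.00 and 0.997 times, while *Il4ra* stood at 1.59 times and *Il9r* at 0.426 times.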

How the data were processed

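Counts were analysed for 6 mouse RNA-Seq libraries, a pair for each of the Naive, Th17 and Th1 cell types, grouped by their titles. Per the labels, poly-A RNA was reverse transcribed by Smart-seq2. The deposited values are raw counts per gene, which the authors made by mapping reads to mm10 with HISAT2 (v2.2.1) and counting with HTSeq (v0.13.5), without normalization. By the methods, duplicate reads were taken out and HTSeq ran with default parameters, whereas the supplementary code has no such removal and counts reverse-stranded reads. If strand was not kept, reads from *Il4ra* and its antisense gene cannot be told apart. The deposited tables hold totals of 17742158 to 69080017 counts, and intervals describe the spread between libraries, not molecules.

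Analysis used R 4.3.3 and edgeR 4.0.16. Genes kept by filterByExpr (13607 of 24223) were fitted by the quasi-likelihood model with TMM scaling, cell type as the only term and all 6 libraries, and called at an adjusted p-value under 0.01 with an absolute log2 fold change above 1. Log2 CPM used a prior count of 2. Exon and coding lengths came from GENCODE vM21 and promoters from RefSeq. The scripts were tested on simulated data. The members and the gene lists were chosen with earlier results of these data known. From each list, the text names at most 5 called genes with the largest changes and more than 3 counts in every library of a compared group, and for each receptor gene the 3 nearest in pattern. The alternatives were DESeq2 1.42.0, scaling by RLE or by library size alone, no filter on counts or one of 10 in every library, the replicate block, fits of the 4 libraries of a comparison, libraries thinned to equal totals, a looser adjusted p-value of 0.05, testing against a 2-fold change, coding length, and leaving out each library. Protein sequences were not used here.

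Replicates within a cell type were separate libraries, with Pearson's r of log2 CPM across genes of 0.97 in Naive, 0.978 in Th17 and 0.975 in Th1. The markers counted were 9 T cell, 6 naive T cell, 5 Th17, 4 Th1, 3 regulatory T cell, 7 CD8 T and NK cell, 6 B cell, 7 macrophage and monocyte, 8 neutrophil, 9 mast cell and basophil and 6 erythroid genes. The B cell markers summed to 2.8 to 22.4 CPM and the erythroid markers to 0.253 to 12.9 CPM.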

Additional observations from a re-analysis of the deposited data

How the results depend on the processing

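The calls of *Il2ra* and *Il2rb* were kept in every comparison and under every alternative run. In Th17 compared with Naive, the number of receptor genes called was 2 instead of 1, with *Il9r* added, under DESeq2, no filter on low counts, the replicate block, only the 4 libraries compared and an adjusted p under 0.05. In Th1 compared with Th17 it was 2 instead of 1, with *Il2ra* added, under DESeq2, no filter and an adjusted p under 0.05. In Th1 compared with Naive it was 2 to 4 over all alternatives, with *Il15ra* added under DESeq2, no filter and an adjusted p under 0.05, and *Il9r* lost without Th1 replicate 2 and not tested where at least 10 counts were required in every library. Leaving out 1 library gave 1, 2 to 3 and 1 calls in the 3 comparisons. Such a fit assumes that the lone library of a cell type varies like the others. Over 24 fold changes of receptor genes and their alternatives, 360 values kept direction and call, 11 gained a call, 1 lost it and 9 changed sign, all of the last on genes without a call. Leaving out 1 library gave, in Th17 compared with Naive, -0.08 to 0.47 for *Il2rg*, -0.36 to 0.29 for *Il4ra*, -0.01 to 0.48 for *Il7r* and 0.00 to 0.53 for *Il21r*, and for *Il21r* -0.12 to 0.42 in Th1 compared with Naive and -0.27 to 0.04 in Th1 compared with Th17. With library size alone *Il21r* was at -0.13 in Th1 compared with Naive. Of the gained calls, *Il9r* in Th17 compared with Naive had an adjusted p of 0.0064 under the replicate block, in a range of 3e-04 to 0.15 over its alternatives. The cause of these changes was not tested.

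Deviations of equally numbered libraries correlated at -0.23 for Naive and Th17, 0.17 for Naive and Th1 and 0.077 for Th17 and Th1. Whether equally numbered libraries shared a source or a run was not tested. Apart from that of *Il9r* in Th17 compared with Naive, the replicate block changed no call of a receptor gene. Over all genes, it changed the calls from 545 higher and 194 lower to 706 and 329 in Th17 compared with Naive. The change was from 631 and 383 to 839 and 563 in Th1 compared with Naive. In Th1 compared with Th17 it was from 367 and 385 to 492 and 549.

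Scaling by library size alone moved the median log2 fold change of all genes by -0.25 in Th1 compared with Naive and by -0.21 in Th1 compared with Th17, where the share of higher calls fell from 48.8% to 36.5%. DESeq2 called 1069 genes higher and 669 lower in Th17 compared with Naive (edgeR 545 and 194), 1108 and 820 in Th1 compared with Naive (631 and 383) and 926 and 898 in Th1 compared with Th17 (367 and 385). Leaving out 1 library gave 291 to 633 higher and 28 to 252 lower, 330 to 595 and 115 to 477, and 107 to 476 and 159 to 540. Depth limits *Il9r* in Th1, which rests on 48 and 5 counts.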
